A study of Mus musculus with 15 samples.

Results

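The mesenchymal transition genes described here were 9 genes that are commonly read as signs of a shift toward a mesenchymal state: Cd44, Vim, Fn1, Tagln, Cdh2, Zeb1, Twist1, Snai2 and Snai1. They were taken by gene symbol from the 46679 genes in the files, with no threshold on their levels. Earlier results of these data were known when they were chosen. Of the 9 genes, 8 passed the filter on low counts and were among the 17481 genes tested. Snai1 did not pass and has values but no test. On GRCm38 (GENCODE M21), Cd44 spans 102811141 to 102901665 and Vim 13573927 to 13582826 of chromosome 2, where Snai1 also lies (167538195 to 167542814). Fn1 is on chromosome 1 (71585520 to 71653200), Tagln on chromosome 9 (45929619 to 45936058), Twist1 on chromosome 12 (33957671 to 33959829), Snai2 on chromosome 16 (14705852 to 14709385), and Zeb1 and Cdh2 on chromosome 18.

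In the epithelial to mesenchymal transition, transcription factors of the Snail, Zeb and Twist families repress genes of cell junctions and raise genes of the cytoskeleton, the matrix and migration. Neurons and glia are not epithelial cells. In glioblastoma the same genes are read as part of a mesenchymal program that has been linked to invasion, and CD44 is a common marker of the mesenchymal subtype. Macrophages, endothelial cells, mural cells and reactive astrocytes also make several of these transcripts, so that a bulk sample sums over all of them.

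RNA was sequenced from end-stage intracranial tumors of 4 syngeneic mouse glioblastoma lines and from naïve brain, for a total of 15 samples from 3 mice per group. CT2A (wild-type p53) and GL261 (mutant K-ras and p53) came from tumors induced by methylcholanthrene and were cultured with serum. The 005 line (p53+/-, with activated H-ras and AKT) and Mut3 (NF1 and p53 inactivated) were grown in neurobasal medium with EGF and FGF-2. All the lines carried GFP and Firefly luciferase, and the naïve group received no cells. C57BL/6 mice of 6 to 8 weeks were implanted with 100000 cells, or 500000 for Mut3. Each tumor group rests on 1 line, so the mice of a group share that line, and the line, its cell number and its culture medium cannot be told apart.

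Total counts lay between 3105119 and 13130158 and were lowest in naïve brain. A count of 3, taken as the floor for counting error only, was 0.214 to 0.811 CPM, which is the count scaled to the TMM-normalized library size. Neuronal markers fitted the labelled tissue in naïve brain, where 8 markers summed to between 1360 and 1560 TPM, a unit that is also scaled to gene length. They summed to at most 308 TPM in the tumors other than 005 replicate 3, which stood at 992 TPM. That sample also had 17.8% mitochondrial counts, against 6.42% and 4.60% in the other 005 tumors, so the calls and differences of 005 are also given without it. In bulk tissue, fewer cells of a type and less RNA per cell cannot be told apart.

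Vim was the member with the highest level per length in every group, at 11.3 TPM in naïve brain and between 97.3 and 161 TPM in the tumors. Fn1 came next in naïve brain (7.85 TPM), GL261 (14.5 TPM), 005 (9.57 TPM) and Mut3 (11.2 TPM), whereas Cd44 came next in CT2A (10.7 TPM). The 4 transcription factors had lower means than Vim and Fn1 in every group. Not all were below the other members, as Zeb1 was above Cd44 in naïve brain (0.735 TPM) and Mut3 (1.92 TPM). Zeb1 had the highest mean of the 4 in naïve brain (2.24 TPM), GL261 (0.994 TPM), 005 (1.27 TPM) and Mut3 (2.23 TPM), and Twist1 had the highest in CT2A (3.14 TPM). Snai1 and Snai2 were the lowest pair of members in every group except Mut3, where Snai1 and Twist1 were.

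Across the 5 groups, 7 of the 8 tested members differed by the edgeR quasi-likelihood F test (Benjamini-Hochberg adjusted p under 0.05 over the tested genes), where 52.1% of those genes did. Cdh2 had the smallest adjusted p of the members, 2.2e-05, and Tagln did not pass (adjusted p = 0.202). The following comparisons were made between pairs of groups. Differentially expressed (DE) genes were those with an adjusted p under 0.05 whose log2 fold change was 1 or more in either direction. The 4 comparisons with naïve brain share the same 3 naïve samples.

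**Figure D1:**
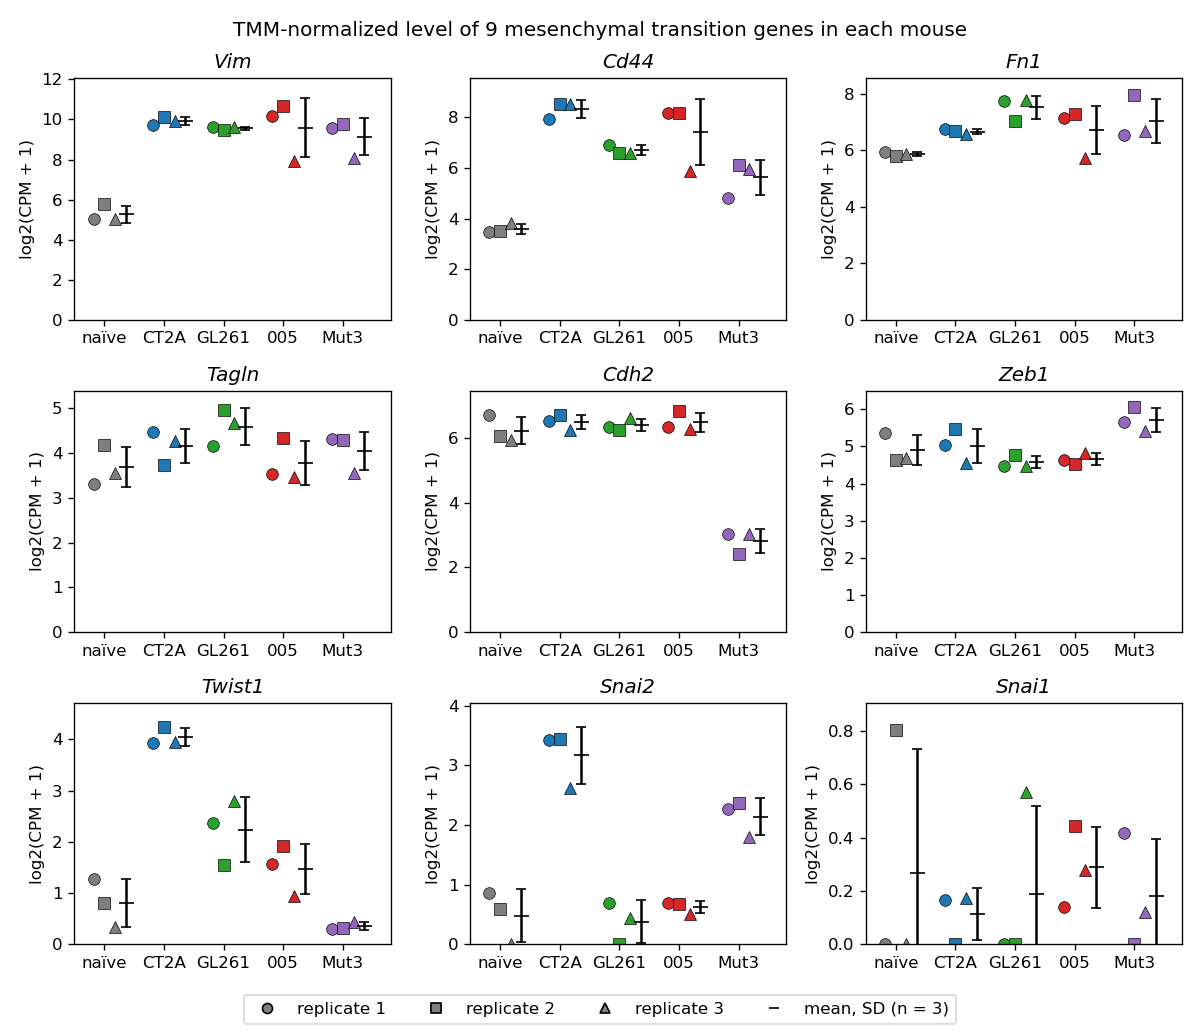
Level of each of the 9 genes in each mouse, as log2(CPM + 1) after TMM normalization, in naïve brain and the 4 tumors (symbols are replicates, the bar at the right of each group is the mean of the log2 values ± SD, n = 3, cut off at 0). Vim and Cd44 are above naïve brain in all 12 tumors, Cdh2 is low in the 3 Mut3 tumors, and the axis of each panel has its own range.

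In CT2A, 4 of the 8 tested members were DE against naïve brain, and 4 rose (Cd44, Vim, Twist1 and Snai2), where 39.2% of tested genes were DE and 19.0% rose. In GL261, 4 members rose (Cd44, Vim, Fn1 and Twist1), where 22.4% of genes were DE and 14.6% rose. In 005, Cd44 and Vim rose, which are 2 of 8, where 12.7% of genes were DE and 11.6% rose. In Mut3, 5 members were DE, of which Cd44, Vim, Fn1 and Snai2 rose (17.9% of genes rose) and Cdh2 fell (19.8% fell), where 37.8% of genes were DE. Of the 32 tests of a member against naïve brain, 14 were called higher and 1 lower.

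Vim encodes vimentin, the intermediate filament of mesenchymal cells and of reactive and immature astroglia. Its levels in naïve brain were 31.4, 53.6 and 31.4 CPM. They were 856, 1101 and 979 CPM in CT2A, 776, 706 and 785 CPM in GL261, 1171, 1613 and 239 CPM in 005, and 764, 860 and 269 CPM in Mut3. Every tumor was above every naïve sample, and the lowest tumors were 005 replicate 3 and Mut3 replicate 3. Against naïve brain the log2 fold change was 4.66 ± 0.62 (SE, adjusted p = 0.000276) in CT2A and 4.28 ± 0.61 (adjusted p = 0.000478) in GL261. It was 4.70 ± 0.62 (adjusted p = 0.00175) in 005 and 4.02 ± 0.60 (adjusted p = 0.000429) in Mut3. The call in 005 did not rest on replicate 3, since Vim rose by 5.09 without it (adjusted p = 2.72e-06). Vim was DE between none of the 6 pairs of tumors. The widest of these differences, 005 over Mut3, was 0.67 with an interval from -0.46 to 1.81, so a difference of more than 3-fold is inside the interval.

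Cd44 encodes the cell surface receptor for hyaluronan, which is also abundant on activated T cells and myeloid cells. It stood at 9.996, 10.5 and 13.3 CPM in naïve brain. It stood at 245, 371 and 373 CPM in CT2A, 120, 96.0 and 94.5 CPM in GL261, 289, 288.5 and 58.5 CPM in 005, and 27.3, 68.1 and 60.6 CPM in Mut3. No tumor overlapped naïve brain, whereas 005 replicate 3 lay within the range of Mut3. In log2 units Cd44 rose by 4.88 ± 0.56 in CT2A (adjusted p = 0.000132) and 3.21 ± 0.52 in GL261 (adjusted p = 0.00107). It rose by 4.24 ± 0.55 in 005 (adjusted p = 0.00175) and by 2.21 ± 0.51 in Mut3 (adjusted p = 0.00372).

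The tumors also differed from each other in Cd44, with the order CT2A, 005, GL261, Mut3 and naïve brain on both the CPM and the TPM scale. CT2A was above Mut3 by 2.66 ± 0.50 (adjusted p = 0.00329), and 005 was above Mut3 by 2.03 ± 0.49 (adjusted p = 0.0119). CT2A was above GL261 by 1.67 ± 0.48 (adjusted p = 0.0476), a call that held in 7 of 22 alternatives. The neighbours CT2A and 005 (0.64, interval -0.37 to 1.65), 005 and GL261 (adjusted p = 0.335) and GL261 and Mut3 (0.99, interval -0.03 to 2.02) did not pass. Without 005 replicate 3, GL261 was below 005 by -1.49 on the log2 scale and passed (adjusted p = 0.0184).

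Upstream sequence is shown for Cd44 and Vim because they are the members that rose in all 4 tumors. The RefSeq windows on GRCm38.p6 run from 250 bases before to 50 after the annotated start, and 4 of the 9 members matched one. Searched on both strands were the E-box CAGGTG, which reads CACCTG on the other strand and is the site of Snail and Zeb factors, the AP-1 site TGANTCA, the CArG box of serum response factor and the TATA box TATAAA. These were present in 20.2%, 7.81%, 1.63% and 13.6% of 32851 windows of 300 bases, and the CArG box and the TATA box can overlap. The first line gives the 150 bases before the start of Cd44 (chr2:102901666-102901815, minus strand), whose whole window held none of the 4 motifs. The second gives the 30 bases at positions -44 to -15 of Vim (chr2:13574267-13574296, plus strand), with TATAAA at positions -32 to -27 in capitals.
Cd44: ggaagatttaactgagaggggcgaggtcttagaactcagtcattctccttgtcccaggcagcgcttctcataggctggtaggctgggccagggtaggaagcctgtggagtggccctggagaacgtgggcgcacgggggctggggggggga
Vim: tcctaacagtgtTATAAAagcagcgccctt
GENCODE M21 begins Vim further upstream, so these 30 bases are exonic in that annotation. A match of letters is a description of the window and was not tested as a site.

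Fn1 encodes fibronectin, a matrix glycoprotein that is bound by integrins. It was measured at 60.0, 55.3 and 58.4 CPM in naïve brain and at 107, 102 and 94.9 CPM in CT2A. The other tumors had 213, 131 and 222 CPM (GL261), 142, 155 and 52.6 CPM (005) and 92.3, 248 and 101 CPM (Mut3). All tumors except 005 replicate 3 were above the naïve samples. Fn1 rose in GL261 by 1.70 ± 0.43 (adjusted p = 0.013) and in Mut3 by 1.34 ± 0.42 (adjusted p = 0.0212). The call in Mut3 was lost without its replicate 2, the highest sample of that group (0.75, adjusted p = 0.154). In CT2A the difference was 0.80 ± 0.42 (adjusted p = 0.135), although the groups did not overlap. In 005 it was 1.01 ± 0.42 (adjusted p = 0.122), and it was called without replicate 3 (1.29, adjusted p = 0.0126). CT2A was below GL261 by -0.90 ± 0.42, with an interval from -1.80 to -0.01, and did not pass (adjusted p = 0.206), although these samples did not overlap. No pair of tumors was DE in Fn1. Both calls against naïve brain were lost on the TPM scale (0.85 in GL261, adjusted p = 0.092, and 0.37 in Mut3, adjusted p = 0.47).

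Tagln encodes transgelin, an actin-binding protein of smooth muscle and other contractile cells. Its values were 8.98, 17.2 and 10.8 CPM in naïve brain, 21.3, 12.4 and 18.3 CPM in CT2A and 16.8, 30.1 and 24.6 CPM in GL261. They were 10.5, 19.2 and 10.1 CPM in 005 and 18.9, 18.5 and 10.8 CPM in Mut3. All 4 tumors overlapped naïve brain, and no comparison of Tagln was DE. GL261 had the highest mean, 23.8 ± 6.67 CPM (SD, n = 3) against 12.3 ± 4.31 CPM in naïve brain, with a log2 difference of 0.95 ± 0.39 (adjusted p = 0.0851). The interval, 0.12 to 1.79, holds a more than 3-fold difference at its upper end. Tagln shares 3627 bases with the antisense gene Gm48529 and 108 bases with Pcsk7 on the opposite strand. The sources used here do not say whether strand was used in counting, so reads of these genes may not be separable.

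**Figure D2:**
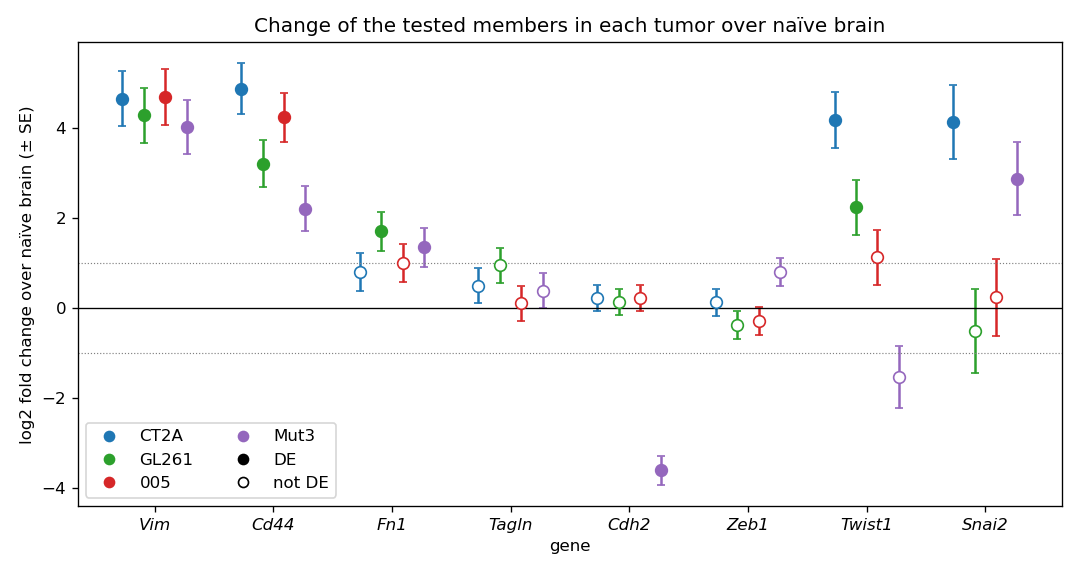
Log2 fold change of the 8 tested genes in each tumor over naïve brain, with bars of ± 1 SE from the edgeR fit of all 15 samples (filled, DE; open, not DE; dotted lines at a log2 fold change of 1 and -1). Vim and Cd44 are filled in all 4 tumors, Twist1 ranges from 4.18 in CT2A to -1.54 in Mut3, and Cdh2 is filled only in Mut3, at -3.61.

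Cdh2 encodes N-cadherin, an adhesion molecule of neural cells whose gain at the expense of E-cadherin is the classic cadherin switch. In naïve brain it stood at 104, 65.0 and 59.8 CPM. CT2A had 90.0, 103 and 75.2 CPM, GL261 had 80.0, 75.3 and 96.3 CPM, and 005 had 80.2, 112 and 76.0 CPM. In Mut3 the values were 7.16, 4.28 and 7.21 CPM, below every other sample. Cdh2 fell by 3.61 ± 0.33 in Mut3 against naïve brain (adjusted p = 2.41e-05). CT2A was above Mut3 by 3.84 ± 0.33 (adjusted p = 1.28e-05), GL261 by 3.75 ± 0.33 (adjusted p = 1.69e-05) and 005 by 3.84 ± 0.33 (adjusted p = 1.94e-05). These 4 differences held in all 22 alternatives. CT2A, GL261 and 005 were between 0.14 and 0.23 above naïve brain on the log2 scale of CPM and were not DE. On the TPM scale the same differences were -0.70, -0.62 and -0.34. Cdh1, which encodes E-cadherin, was low in naïve brain (2.38 CPM) and had between 1.03 and 3.43 CPM in the tumors, with no call.

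Neuronal markers, which also mark cells that express Cdh2, summed to between 8.28 and 30.9 TPM in Mut3 and to between 41.9 and 200 TPM in CT2A, with 8 of 8 markers lower than in naïve brain in both. Over all tested genes, 19.8% fell in Mut3 and 20.2% in CT2A. Astrocyte markers summed to between 11.6 and 31.4 TPM in Mut3 and to between 10.9 and 20.5 TPM in CT2A, against 59.6 to 110 TPM in naïve brain. The part of either cell type in the Cdh2 values was not tested.

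Between pairs of tumors, 17 of the 48 tests of a member were called. Of these calls, 11 were in transcription factors, with 5 in Twist1, 4 in Snai2 and 2 in Zeb1. Over all tested genes, between 2.62% and 19.8% were DE in a pair. Twist1, a basic helix-loop-helix factor of mesoderm and neural crest, was measured at 1.43, 0.747 and 0.270 CPM in naïve brain, in which the floor is between 0.612 and 0.811 CPM. It stood at 14.3, 18.01 and 14.5 CPM in CT2A, 4.15, 1.94 and 5.94 CPM in GL261, 1.96, 2.78 and 0.926 CPM in 005, and 0.224, 0.252 and 0.352 CPM in Mut3. CT2A was above every other sample, and Mut3 held 8 counts over 3 mice. Twist1 rose by 4.18 ± 0.62 in CT2A (adjusted p = 0.000482) and by 2.24 ± 0.61 in GL261 (adjusted p = 0.0189). The call in GL261 was lost without GL261 replicate 3 (1.74, adjusted p = 0.0862) and without naïve replicate 3 (1.86, adjusted p = 0.0606), and also on the TPM scale (1.25, adjusted p = 0.051). In 005 the difference was 1.13 ± 0.61 (adjusted p = 0.212), and in Mut3 it was -1.54 ± 0.70 (adjusted p = 0.0917).

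Twist1 was called in 5 of the 6 pairs of tumors, more pairs than any other member. CT2A was above Mut3 by 5.72 ± 0.66 (adjusted p = 0.000119), above 005 by 3.05 ± 0.56 (adjusted p = 0.00879) and above GL261 by 1.95 ± 0.53 (adjusted p = 0.0369). GL261 and 005 were above Mut3 by 3.77 ± 0.64 (adjusted p = 0.00195) and 2.67 ± 0.63 (adjusted p = 0.0109). The remaining pair, GL261 over 005, differed by 1.11 with an interval from -0.04 to 2.25. The call of CT2A over GL261 was lost when any 1 of the 6 samples compared was left out.

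Snai2 encodes Slug, a zinc finger repressor of the Snail family. It held 6 counts over the 3 naïve brains (0.816, 0.498 and 0 CPM) and 6 over the GL261 tumors (0.622, 0 and 0.364 CPM). It held 17 over the 005 tumors (0.618, 0.604 and 0.427 CPM). CT2A had 9.77, 9.94 and 5.17 CPM, and Mut3 had 3.80, 4.15 and 2.46 CPM. Every CT2A and Mut3 sample was above every other sample. Snai2 rose by 4.13 ± 0.82 in CT2A (adjusted p = 0.00234) and by 2.87 ± 0.81 in Mut3 (adjusted p = 0.0122). Snai2 did not pass in GL261 (-0.51 ± 0.94, interval -2.52 to 1.497) or in 005 (0.24 ± 0.86, interval -1.60 to 2.08). A fall from the 6 counts of naïve brain was not detectable at this depth.

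Between tumors, CT2A exceeded GL261 by 4.64 ± 0.83 (adjusted p = 0.00415) and 005 by 3.89 ± 0.76 (adjusted p = 0.0119) in Snai2. GL261 was below Mut3 by -3.38 ± 0.82 (adjusted p = 0.0131), and 005 was below Mut3 by -2.63 ± 0.74 (adjusted p = 0.022). CT2A and Mut3 did not pass (1.25, interval -0.17 to 2.68), although their samples did not overlap. Against CT2A and Mut3 as 1 class, GL261 and 005 were lower in Snai2 by -3.64 ± 0.56 (adjusted p = 0.00136), in a test over mice and not over lines.

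Snai1, which encodes Snail, held 3, 2, 4, 7 and 4 counts in naïve brain, CT2A, GL261, 005 and Mut3. Its highest value was 0.747 CPM, in naïve replicate 2, where it equals the floor of 3 counts. Snai1 was not tested. A fall from these counts, or a small difference between groups, was not detectable at this depth. No group held a count like the 184 of Snai2 in CT2A.

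Zeb1, a zinc finger and homeodomain repressor that is also expressed by neural progenitors and glia, was measured at 40.2, 23.9 and 24.9 CPM in naïve brain. CT2A had 31.8, 43.0 and 22.4 CPM, GL261 had 21.1, 26.2 and 21.4 CPM, 005 had 23.8, 21.9 and 27.4 CPM, and Mut3 had 49.0, 65.3 and 41.6 CPM. Mut3 lay above naïve brain, GL261 and 005 without overlap. GL261 was below Mut3 by -1.18 ± 0.31 (adjusted p = 0.0196) and 005 by -1.09 ± 0.31 (adjusted p = 0.0235). Leaving out Mut3 replicate 2, its highest sample, took these to -0.99 (adjusted p = 0.0749) and -0.90 (adjusted p = 0.0901). Against naïve brain, Zeb1 was 0.81 ± 0.31 higher in Mut3 and did not pass (adjusted p = 0.0503), and on the TPM scale this difference was 0.01. The other tumors were within 0.38 of naïve brain on the log2 scale of CPM.

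Upstream sequence is given for Twist1, the member with the most differences between tumors, and for Snai1, which was near 0 everywhere. The 150 bases before the start of Twist1 (chr12:33957521-33957670, plus strand) hold TATAAA at positions -126 to -121. Those before Snai1 (chr2:167538045-167538194, plus strand) hold the E-box as CACCTG at positions -126 to -121. These letters are in capitals, and neither window held another of the 4 motifs.
Twist1: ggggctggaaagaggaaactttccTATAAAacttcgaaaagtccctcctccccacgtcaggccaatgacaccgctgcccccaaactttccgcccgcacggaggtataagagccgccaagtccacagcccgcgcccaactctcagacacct
Snai1: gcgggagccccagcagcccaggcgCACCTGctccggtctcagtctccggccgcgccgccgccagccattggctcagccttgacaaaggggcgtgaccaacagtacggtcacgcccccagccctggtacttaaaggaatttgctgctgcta

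**Figure D3:**
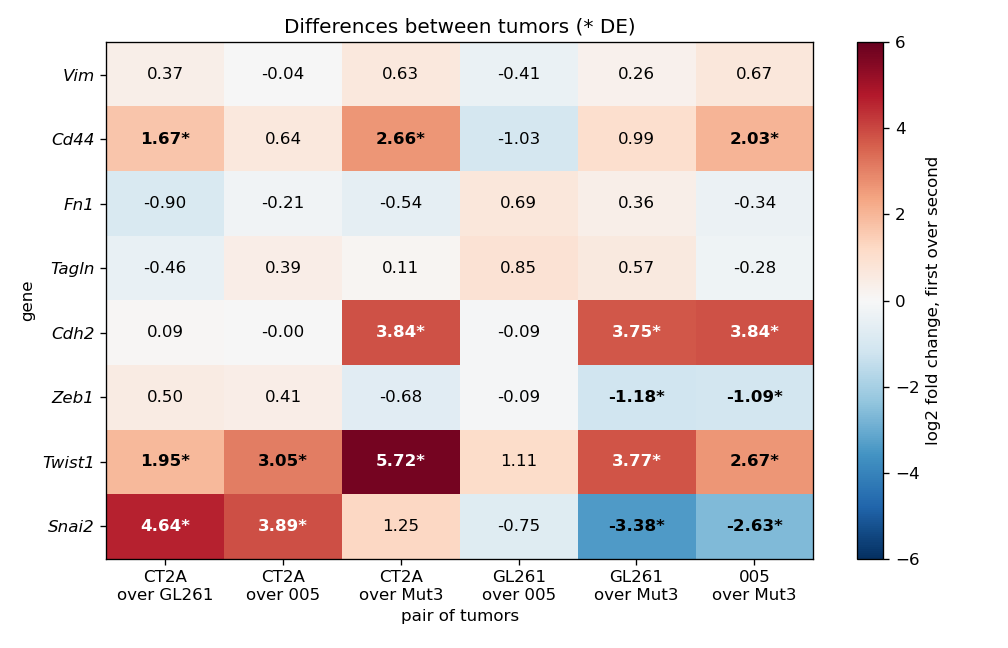
Log2 fold change of the 8 tested genes in the 6 pairs of tumors, as color and number, for the first tumor over the second (asterisks, DE in edgeR). Of the 48 cells 17 are DE, of which Twist1 has 5, Snai2 has 4, Cd44 and Cdh2 have 3 each and Zeb1 has 2, whereas Vim, Fn1 and Tagln have 0.

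Set beside all genes, CT2A and GL261 differed in 3 of the 8 tested members where 7.77% of genes were DE, and CT2A and 005 in 2 where 4.11% were. CT2A and Mut3 differed in 3 (12.8% of genes), GL261 and Mut3 in 4 (17.2%) and 005 and Mut3 in 5 (19.8%). GL261 and 005 differed in 0 members by edgeR and in 0 by DESeq2, where 2.62% of genes were DE by edgeR. In that pair 2 members had an unadjusted p under 0.05 (Cd44 and Tagln). Without 005 replicate 3 the count of DE members was 1, Cd44, where all genes called rose from 458 to 1073.

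Contrasts between classes of 2 lines each were also fitted. Their tests are over mice of these lines and not over lines. The serum-cultured lines, CT2A and GL261, were above 005 and Mut3 in Twist1 by 3.41 ± 0.42 (adjusted p = 0.000272) and in Cdh2 by 1.87 ± 0.22 (adjusted p = 0.000144), which is 2 members where 5.06% of genes were DE. Cdh2 in 005 overlapped CT2A and GL261, and the Mut3 samples were the low ones. Twist1 in GL261 overlapped 005 and that pair was not DE, whereas CT2A was above every other sample. The study also sets GL261 and 005, as immunologically active tumors, against CT2A and Mut3. The classes differed in 2 members where 16.9% of genes were DE. These were Snai2, given above, and Cdh2 (1.87 ± 0.22, adjusted p = 0.00021). In this contrast too the Mut3 samples were the low ones in Cdh2, and CT2A overlapped GL261 and 005.

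Without 005 replicate 3, Cd44 rose in 005 over naïve brain by 4.62 (adjusted p = 2.03e-06) beside the values of Vim and Fn1 given above. The other members again did not pass against naïve brain. Twist1 stood at 1.39 (adjusted p = 0.0853), Snai2 at 0.33 (adjusted p = 0.819), Zeb1 at -0.45 (adjusted p = 0.319), Cdh2 at 0.26 (adjusted p = 0.541) and Tagln at 0.20 (adjusted p = 0.744). CT2A over 005 gave 3.75 for Snai2 (adjusted p = 0.0249) and 2.74 for Twist1 (adjusted p = 0.0166). The 5 calls between 005 and Mut3 were also made without that sample, with 2.41 for Cd44 (adjusted p = 0.000361), 2.94 for Twist1 (adjusted p = 0.0055), 3.88 for Cdh2 (adjusted p = 1.34e-05), -1.24 for Zeb1 (adjusted p = 0.0258) and -2.52 for Snai2 (adjusted p = 0.0499). In the contrast by culture, Twist1 stood at 3.22 (adjusted p = 0.000338) and Cdh2 at 1.80 (adjusted p = 0.000284). In that of GL261 and 005 against CT2A and Mut3, Snai2 stood at -3.60 (adjusted p = 0.00141) and Cdh2 at 1.88 (adjusted p = 0.000123).

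Markers of other cells that make these transcripts were measured in the same samples. The 8 macrophage and monocyte markers summed to between 70.9 and 108 TPM in naïve brain, 174 and 255 TPM in CT2A, 260 and 444 TPM in GL261, 465 and 2490 TPM in 005 and 60.2 and 229 TPM in Mut3. Of the 8, 6 rose in CT2A, 6 in GL261 and 7 in 005, and in Mut3 1 rose and 2 fell. Over all tested genes, 19.0%, 14.6%, 11.6% and 17.9% rose in CT2A, GL261, 005 and Mut3. The shares that fell were 20.2%, 7.77%, 1.05% and 19.8%.

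T cell markers summed to between 4.37 and 11 TPM in naïve brain, 20.1 and 40.1 TPM in CT2A, 64.9 and 132 TPM in GL261, 61.1 and 380 TPM in 005 and 5.47 and 15.5 TPM in Mut3. Mural cell markers, relevant to Tagln, summed to between 10 and 19.9 TPM in naïve brain and to between 6.81 and 16.2 TPM in the tumors. Fibroblast markers summed to between 10.9 and 19.1 TPM in naïve brain, 8.62 and 11.6 TPM in CT2A and 4.93 and 14.3 TPM in the others. Of the 10 mural markers 8 were tested, and 2 were higher in CT2A, 005 and Mut3 and 0 in GL261, with 0 lower. Of 8 fibroblast markers, 3, 0, 2 and 1 were higher and 1, 2, 1 and 1 lower in CT2A, GL261, 005 and Mut3. Of 5 tested T cell markers, 4, 4, 4 and 0 were higher and 1, 0, 0 and 1 lower. The shares over all tested genes were 19.0%, 14.6%, 11.6% and 17.9% higher and 20.2%, 7.77%, 1.05% and 19.8% lower. No marker of these 4 lists was at 0 in all samples of a group. How much of the members' RNA came from these cells was not tested.

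The scale on which the groups were compared moved the levels against naïve brain. The median log2 fold change of all genes was between -0.08 and 0.11 with TMM and between -0.77 and -0.45 with TPM. On the TPM scale, tested with limma, Zeb1 was called lower in GL261 (-1.07, adjusted p = 0.0385) and Twist1 lower in Mut3 (-1.29, adjusted p = 0.046). Vim, Cd44, the Snai2 calls in CT2A and Mut3 and the Cdh2 call in Mut3 held on both scales. With TPM, 3 members rose and 2 fell in Mut3, and 2 rose and 1 fell in GL261. Over all genes, 7043 were called with TPM in Mut3 and 7234 in GL261, beside 6601 and 3913 in the main test.

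Other genes of the same processes were followed in 9 lists, with counts given in the order CT2A, GL261, 005 and Mut3. Over all tested genes, 19.0%, 14.6%, 11.6% and 17.9% rose in these tumors and 20.2%, 7.77%, 1.05% and 19.8% fell. Of 13 markers of the mesenchymal glioma subtype, 12 were higher in CT2A, 11 in GL261, 10 in 005 tumors and 7 in Mut3, while 1 fell in GL261 and 2 in Mut3. The median log2 fold changes of the list were 3.40, 2.82, 3.31 and 1.77, beside -0.04, -0.08, 0.01 and 0.11 over all tested genes. In CT2A the calcium-binding proteins S100a4 and S100a6 rose by 6.46 ± 0.68 (adjusted p = 6.53e-05) and 5.92 ± 0.71 (adjusted p = 0.000162). The annexin Anxa1 rose there by 6.00 ± 0.93 (adjusted p = 0.000578) and the membrane protein Emp1 by 5.92 ± 0.69 (adjusted p = 0.000138). S100a4, S100a6, Anxa1 and Emp1 were called higher in all 4 tumors. The genes that fell were Mrc2 in GL261 (-2.21) and Chil1 (-2.31) and the receptor gene Met (-2.96) in Mut3. Chil1 and Met rose in CT2A by 2.92 and 2.14, and Met also rose in GL261 by 2.53. Several of these markers, such as Lgals3 and Casp1, are also made by macrophages.

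Of 12 hyaluronan genes and CD44 partners, 9 were tested, and 6, 4, 5 and 5 rose in CT2A, GL261, 005 and Mut3 with none falling, beside 19.0%, 14.6%, 11.6% and 17.9% of all genes that rose. Has2, a hyaluronan synthase, rose in all 4 tumors, from 0.248 CPM in naïve brain, which is under the floor, to 42.2 CPM in GL261 (adjusted p = 0.000113). Hmmr, a hyaluronan receptor of dividing cells, rose in all 4 tumors, by 5.67 ± 0.73 in Mut3 (adjusted p = 0.000193). Spp1, the CD44 ligand osteopontin, rose to 3450 CPM from 140 CPM in 005 (4.62 ± 0.74, adjusted p = 0.00197). Spp1 also rose in CT2A and GL261 and was not DE in Mut3. Msn, which encodes moesin and links CD44 to actin, rose in all 4 tumors, by 3.82 ± 0.50 in 005 (adjusted p = 0.00175).

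The 18 fibronectin receptors and matrix genes had 10, 6, 8 and 6 members that rose and none that fell, where 19.0%, 14.6%, 11.6% and 17.9% of all genes rose. Itgb1, the beta chain of the fibronectin receptor, rose in all 4 tumors by between 1.92 and 2.60, and its partner Itga5 rose in CT2A, 005 and Mut3. Collagen III (Col3a1) rose in all 4 tumors, by 6.37 ± 0.78 in CT2A (adjusted p = 0.000183). Periostin (Postn) and thrombospondin (Thbs1) rose in CT2A and 005. In CT2A they rose by 5.24 ± 0.71 (adjusted p = 0.000303) and 4.64 ± 0.67 (adjusted p = 0.000416). Fibrillin (Fbn1) rose in CT2A, GL261 and Mut3, by 4.26 ± 0.55 in Mut3 (adjusted p = 0.000204).

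Of 6 intermediate filament genes, 5 were tested, and 3, 2, 2 and 2 rose. Nes, which encodes nestin of neural progenitors, rose in all 4 tumors, by 3.79 ± 0.76 in Mut3 (adjusted p = 0.00182). Gfap, the astrocyte filament, rose in GL261 and Mut3 (2.57 ± 0.59 in Mut3, adjusted p = 0.00397). Lmna rose in CT2A (2.79 ± 0.52, adjusted p = 0.00163) and 005, and Plec in CT2A. Synm fell in CT2A (-1.94 ± 0.72, adjusted p = 0.0422) and Mut3. Of 14 contractile and actin-binding genes, 12 were tested, and 4, 4, 4 and 3 rose and 2, 1, 0 and 2 fell. The shares over all genes were 19.0%, 14.6%, 11.6% and 17.9% higher and 20.2%, 7.77%, 1.05% and 19.8% lower. Cald1 (caldesmon, 4.24 ± 0.68 in CT2A, adjusted p = 0.000714) and Tagln2 (3.91 ± 0.46 in GL261, adjusted p = 0.000147) rose in all 4 tumors, Cnn2 in CT2A, GL261 and 005 (3.93 ± 0.52 in GL261, adjusted p = 0.000334), and Actg2 in GL261 and Mut3 (4.00 ± 0.72 in Mut3, adjusted p = 0.00101). Acta2, the smooth muscle actin, was not DE, with 39.3 CPM in naïve brain and 41.3 to 63.4 CPM in the tumors.

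**Figure D4:**
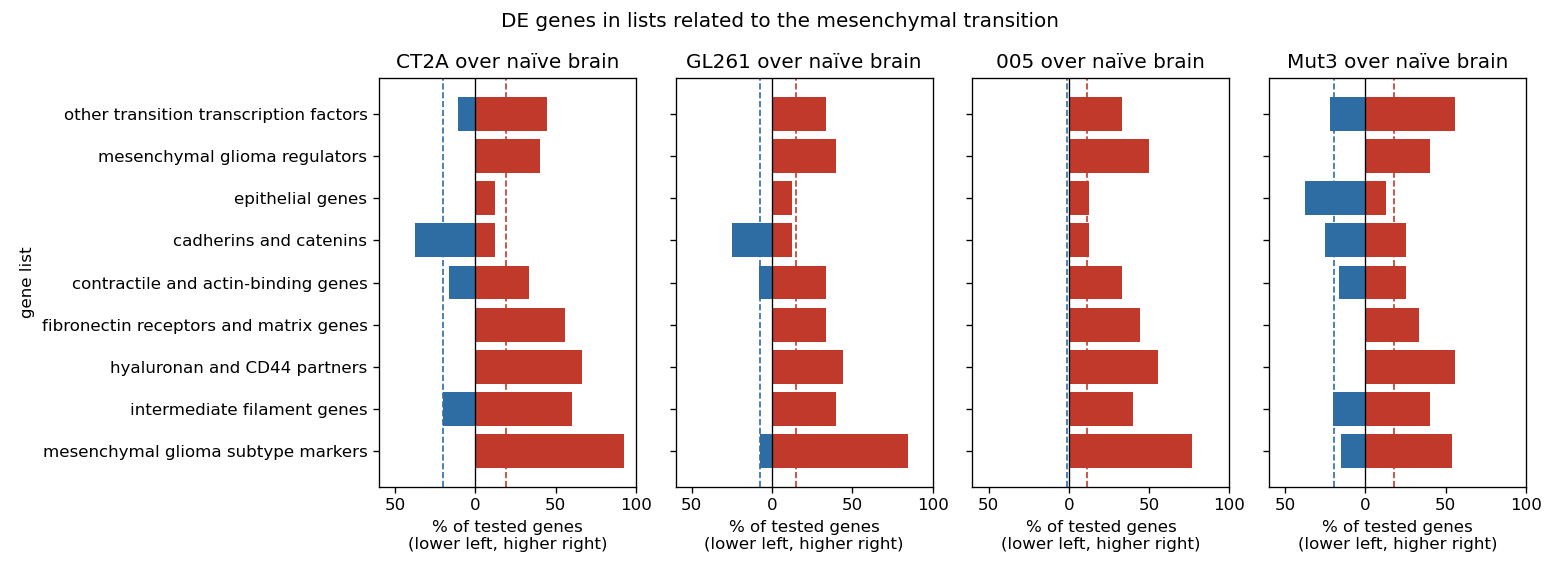
Share of the tested genes of 9 lists that were DE in each tumor over naïve brain (red, to the right of 0, percent higher; blue, to the left, percent lower; dashed lines, the same percent over all 17481 tested genes). The mesenchymal glioma subtype markers have the longest red bars in CT2A, GL261 and 005, with 12, 11 and 10 of 13 genes, and the epithelial genes have 3 of 8 lower in Mut3.

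Other transcription factors of the transition were tested in 9 of 10 cases. Prrx1, a homeobox factor of mesenchyme, rose in all 4 tumors, from 7.81 to 161 CPM in CT2A (4.37 ± 0.56, adjusted p = 0.000241), and so did Id3 (1.86 ± 0.46 in 005, adjusted p = 0.0166). Tcf3 rose in CT2A, 005 and Mut3 (2.39 ± 0.56 in 005, adjusted p = 0.0123), Zeb2 in CT2A, GL261 and Mut3 and Foxc2 in Mut3. Id2 fell in CT2A (-1.72 ± 0.40, adjusted p = 0.00494) and Mut3. Twist2 fell in Mut3, where Twist1 was also low, from 1.28 to 0.0293 CPM, which is under the floor. Of 10 regulators of the mesenchymal glioma state, 4, 4, 5 and 4 rose and none fell, where 19.0%, 14.6%, 11.6% and 17.9% of all genes rose. Fosl2, Bhlhe40, Yap1 and Relb were DE in no tumor. Runx1 and Cebpd rose in all 4 tumors, Runx1 by 5.42 ± 0.64 in CT2A (adjusted p = 0.000151) and Cebpd by 3.80 ± 0.54 in GL261 (adjusted p = 0.000478). Fosl1, a subunit of AP-1, rose by 6.89 ± 0.99 in CT2A (adjusted p = 0.000407), from a level near the floor in naïve brain. Fosl1 also rose in GL261 and 005 and was not DE in Mut3 (0.71 ± 1.03). Wwtr1, the coactivator TAZ, rose by 4.09 ± 0.62 in CT2A (adjusted p = 0.000533) and also rose in 005 and Mut3. Stat3 rose in GL261 and Mut3, and Cebpb in 005.

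Epithelial genes were near the floor, and 8 of 15 were tested. Esrp2, a splicing factor of epithelial cells that acts on CD44 transcripts, rose in all 4 tumors, from 0 CPM in naïve brain to 2.93, 3.93, 1.21 and 2.20 CPM in CT2A, GL261, 005 and Mut3. Cldn1, Dsp and Ovol2, at 2.93 to 3.29 CPM in naïve brain, fell in Mut3 to at most 0.184 CPM, which is under the floor. The 5 markers of choroid plexus, an epithelium of the brain, summed to between 88.4 and 167 TPM in Mut3 and to between 242 and 1180 TPM in naïve brain. Of these markers 1 of 5 was lower in Mut3, where 19.8% of all genes fell. The part of choroid plexus in the falls of Cldn1, Dsp and Ovol2 was not tested. The median over the list was -0.98, 0.33, 0.07 and -2.22 in the 4 tumors, also with Esrp2 at the bound that the floor in naïve brain gives. Of 8 cadherins and catenins besides Cdh2, Ctnna1 rose in all 4 tumors (1.72 ± 0.29 in CT2A, adjusted p = 0.00103) and Ctnnb1 in Mut3. Cdh11 fell with Cdh2 in Mut3 (-3.57 ± 0.76, adjusted p = 0.00238) and also fell in CT2A, where Cdh2 was not DE. Cdh4 fell in CT2A (-4.11 ± 0.73, adjusted p = 0.00127) and GL261, Ctnna2 in CT2A (-3.87 ± 0.78, adjusted p = 0.00253) and Mut3, and Jup in GL261. Without 005 replicate 3, the counts in 005 were 11 of 13 subtype markers higher, 7 of 10 regulators higher and 3 of 8 cadherins and catenins lower, where 17.6% of genes rose and 18.1% fell.

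The genes whose pattern over the 15 samples was most like that of a member were found by the root mean square difference of centred log2 CPM. For Cd44, which had an SD of 1.76 over the samples, they were Tgif1 (0.37), Anxa5 (0.41) and Lgals1 (0.45). Vim had Capg (0.44), Ube2c (0.56) and Plod2 (0.59) nearest to it. Those nearest to Snai2 were Bgn (0.76), Slc38a6 (0.80) and Bdh2 (0.83), and those nearest to Twist1 were Plscr2 (0.75), H2-Q6 (0.77) and Plat (0.79). Mcts2 (0.53), Zfp965 (0.55) and Evi2a (0.60) were nearest to Cdh2. For Fn1, Zeb1 and Tagln, whose SDs were between 0.49 and 0.71, the nearest genes lay at 0.29 to 0.36 and included ribosomal protein genes for Fn1 (Rpl15 and Rpl10a).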

How the data were processed

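RNA from 4 tumor lines and naïve brain was sequenced in 15 mice. Per the labels, the authors aligned reads with STAR 2.4.2a to the GENCODE mouse genome (mm10), marked duplicates with Picard and took metrics from RNA-SeQC. The submitters' processing notes also name Salmon and DESeq2 1.18.1. The authors deposited estimated counts without normalization between samples, and TPM values scaled to gene length and total. In 4644 genes over 50 counts throughout, the count was the TPM times 1 factor for the gene and 1 for the sample, within a log2 residual of 9.61e-10, so both scales hold the same measurement.

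Samples were grouped by their titles. Estimated counts were rounded and tested with edgeR 4.0.16 in R 4.3.3 (filterByExpr, TMM, quasi-likelihood test, 15 samples, a mean per group, no covariate). Adjusted p-values are Benjamini-Hochberg values over the 17481 genes tested, the SE is the log2 fold change over the root of F, and intervals are at 95%. Levels are CPM. Total counts of 3105119 to 13130158 put 3 counts at 0.214 to 0.811 CPM, which limits Snai1, Snai2 and Twist1 most. The steps were tested on simulated counts.

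The members, lists and tests were chosen with earlier results of these data known. The genes named are the members and, per list, at most 4 DE genes with the largest absolute change in any comparison with naïve brain and at least 3 log2 CPM on average in the higher group. Other list genes were named after their values were seen. For each tested member, the 3 genes most alike are given. Gene names and positions come from GENCODE M21 (46201 of 46679 identifiers matched), and upstream sequences from RefSeq. TATAAA was added to the motifs after the sequences were seen. Overlapping genes, such as an antisense gene in Fn1 and in Cdh2, can share reads with a member where counting ignored strand.

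The alternatives were DESeq2 1.42.0, library sizes without TMM, no filter on low counts, at least 10 counts in each sample, no fold threshold, a fit of only the samples compared, a replicate block, and each replicate left out. Chosen after seeing the data were limma 3.58.1 on log2(TPM + 0.1) and the list counts in 005 without replicate 3. Staining and cytometry were not analysed here.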

Additional observations from a re-analysis of the deposited data

Results flagged for a closer look

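The 17 values here are differences between the changes of 2 tumors over naïve brain, each tested as the contrast of the tumors in edgeR, and the naïve samples cancel in them. They were flagged because the contrast was DE, with n = 3 mice a group. Cd44, the hyaluronan receptor, changed more in CT2A than in GL261 (1.67) and Mut3 (2.66) and more in 005 than in Mut3 (2.03). Snai2 changed more in CT2A than in GL261 (4.64) and 005 (3.89), and less in GL261 (-3.38) and 005 (-2.63) than in Mut3. Twist1 changed more in CT2A than in GL261 (1.95), 005 (3.05) and Mut3 (5.72), and more in GL261 (3.77) and 005 (2.67) than in Mut3. Zeb1 changed less in GL261 (-1.18) and 005 (-1.09) than in Mut3. Cdh2 differed from Mut3 by 3.84 in CT2A, 3.75 in GL261 and 3.84 in 005.

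The order of the tumors was not shared between the transcription factors. Twist1 was lowest in Mut3, where Snai2 was the second highest and Zeb1 the highest on the CPM scale. Groups of 3 are too small to flag a single sample as an outlier.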

How the results depend on the processing

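Of the 36 called differences, none reversed under any alternative, 726 values stayed called and 49 were no longer called. The 13 counts of members stayed within 1.5 times of the reported one in all but the following cases. With at least 10 counts in every sample, which removes Snai2 and Twist1 from the test, the counts were 2 in CT2A over naïve brain (from 4), 1 in CT2A over GL261 (from 3), 0 in CT2A over 005 (from 2), 2 in GL261 over Mut3 (from 4), 3 in 005 over Mut3 (from 5), and 1 in each of the contrasts of CT2A and GL261 against 005 and Mut3 and of GL261 and 005 against CT2A and Mut3 (from 2). In the same order, all genes called with that filter were 3956, 908, 649, 1531, 1742, 418 and 1233. The main test had 6858, 1358, 719, 3015, 3463, 884 and 2959. With library size in place of TMM, CT2A over GL261 gave 1, where all genes called went from 1358 to 1208. With only the samples compared, CT2A over 005 gave 1 and 005 over Mut3 gave 2. All genes called there went from 719 to 108 and from 3463 to 925.

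Leaving out 1 replicate gave 1 to 3 members in CT2A over GL261, 1 to 2 in CT2A over 005, 0 to 1 in GL261 over 005 and 2 to 5 in 005 over Mut3. CT2A over GL261 fell to 1 without any of its 6 samples, CT2A over 005 to 1 without CT2A replicate 2, and 005 over Mut3 to 2 without Mut3 replicate 1 and 3 without Mut3 replicate 2. All genes called in these fits were 599 to 1076 in CT2A over GL261 (from 1358) and 189 in CT2A over 005 (from 719). They were 1762 and 2395 in 005 over Mut3 (from 3463). GL261 over 005 rose to 1 without 005 replicate 3, where all genes called rose from 458 to 1073. The cause was not tested. The calls that were least stable were Cd44 (called in 7 of 22 alternatives) and Twist1 (13 of 21) in CT2A over GL261, and Zeb1 in GL261 (17 of 22) and 005 (15 of 22) against Mut3. Some differences were called only under an alternative. Tagln in GL261 over naïve brain was called with only the samples compared (1.08, adjusted p = 0.046) and without naïve replicate 2 (1.41, adjusted p = 0.0432). Zeb1 in Mut3 was called without naïve replicate 1 (1.09, adjusted p = 0.0283), and Twist1 in Mut3 without naïve replicate 3 (-1.92, adjusted p = 0.0475). With no fold threshold, Zeb1 was also called in GL261 and 005 against CT2A and Mut3 (-0.80, adjusted p = 0.0208). In 005 over naïve brain the background moved more than the members. All genes called there ranged from 222 with only the samples compared to 6535 without 005 replicate 3, around 2217. The members called were 2, or 3 without 005 replicate 3.

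Replicate numbers name different mice. With the replicate block, CT2A over GL261 gave 1 member (from 3), where all genes called went from 1358 to 1066. No other count of members moved by over 1.5 times with the block. Over 30 pairs of samples with the same number, the correlation of deviations from the group mean had a median of -0.02 (-0.331 to 0.262), and 2 of 15 samples correlated best with their own number, so the numbers were not taken to pair the samples. Depth limits Snai1, in which a fall or a small difference could not be seen, and a fall of Snai2 below naïve brain.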
